A study of Mus musculus with 2 samples.

Results

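The regions described here are antisense contigs, stretches of continuous RNA coverage that overlap an annotated gene, called the host, on the strand opposite to it. They were chosen by a rule on the deposited mm9 contig table: a length of at least 200 nt, a level of at least 0.5, an annotated gene on the opposite strand and none on the contig's own strand. The rule found 885 contigs of 599181, in 750 host genes. Of the 885, 615 (69.49%) lay wholly inside their host, and 63.66% of all contig bases did. Of 64885 contigs that reached the same length and level, 56519 lay only on the strand of an annotated gene, 5732 overlapped genes of both strands and 1749 lay outside genes. The members were thus selected on their level, length and overlap, and these 3 properties are given below as a description.

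Livers of embryonic day 14.5 littermates of the C57BL/6J strain, of both sexes and with no treatment or genetic change named, gave the RNA. Stranded paired-end libraries of polyadenylated RNA gave 2 biological replicates of 1 group, so the series has no contrast, and the number of animals per library is not given in the sources used here. The gene tables held 102720920 expected counts in replicate 1 and 65640933 in replicate 2. The hepatocyte genes Alb (2229 ± 15.6 RPKM, SD, n = 2) and Afp (1226 ± 267 RPKM) and the red cell gene Hba-a1 (12160 ± 1253 RPKM) were abundant. The heart, lung and stomach markers Nppa, Sftpc, Myh6 and Gkn1 were at or near 0, and Ins2 reached 0.0273 ± 0.0126 RPKM.

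Transcription from both strands of a gene is common in mammals. Many active promoters fire in both directions, and the upstream product is usually short and unstable. Other antisense RNAs start inside or beyond a gene, are spliced and polyadenylated, and include the long RNAs of imprinted domains, while RNA of a neighbouring gene that fails to stop can run into a gene that faces it. Stranded libraries can also assign a small share of sense reads to the wrong strand, whose part in the values below was not tested.

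Antisense coverage was densest around host starts, so the sequence that such contigs cross is shown first. For 85 contigs the 5′ end lay inside the host within 500 nt of an annotated mm9 start, the contig covered the 250 nt before that start, and RefSeq had 1 promoter for the host. In 30 of them no GENCODE M21 exon lay in the RefSeq window. The 250 nt before the RefSeq start are printed for the 6 such hosts of highest contig level, from GRCm38.p6, 5′ to 3′ on the host strand. Capitals mark the TATA box (TATAAA), the CCAAT box and the GC box (GGGCGG) on either strand. The contig is on mm9, so its exact overlap with the printed bases was not measured.
2610206C17Rik: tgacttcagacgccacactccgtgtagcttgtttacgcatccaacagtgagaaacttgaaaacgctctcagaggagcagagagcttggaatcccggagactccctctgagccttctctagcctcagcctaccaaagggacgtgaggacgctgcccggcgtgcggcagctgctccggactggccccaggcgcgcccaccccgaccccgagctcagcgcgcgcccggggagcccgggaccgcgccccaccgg
Pspc1: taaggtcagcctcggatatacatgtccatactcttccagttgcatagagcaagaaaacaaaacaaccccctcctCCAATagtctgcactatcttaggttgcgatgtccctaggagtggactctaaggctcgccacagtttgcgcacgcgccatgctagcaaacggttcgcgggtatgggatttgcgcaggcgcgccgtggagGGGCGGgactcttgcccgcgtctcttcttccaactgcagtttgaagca
Wdr81: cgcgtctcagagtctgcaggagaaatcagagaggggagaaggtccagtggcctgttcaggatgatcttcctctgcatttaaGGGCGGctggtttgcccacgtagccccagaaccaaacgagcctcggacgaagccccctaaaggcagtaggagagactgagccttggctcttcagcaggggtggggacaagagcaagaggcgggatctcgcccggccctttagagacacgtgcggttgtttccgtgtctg
Zbtb2: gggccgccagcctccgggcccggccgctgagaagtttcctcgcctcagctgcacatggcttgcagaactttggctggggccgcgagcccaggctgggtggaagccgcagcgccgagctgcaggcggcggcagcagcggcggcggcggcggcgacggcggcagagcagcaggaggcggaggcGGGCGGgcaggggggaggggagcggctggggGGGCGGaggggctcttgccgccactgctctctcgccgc
Ino80: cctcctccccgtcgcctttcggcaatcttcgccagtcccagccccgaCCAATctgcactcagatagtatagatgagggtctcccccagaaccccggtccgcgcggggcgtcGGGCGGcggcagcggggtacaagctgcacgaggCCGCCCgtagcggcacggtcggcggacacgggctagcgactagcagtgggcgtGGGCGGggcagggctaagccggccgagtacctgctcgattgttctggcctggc
Syvn1: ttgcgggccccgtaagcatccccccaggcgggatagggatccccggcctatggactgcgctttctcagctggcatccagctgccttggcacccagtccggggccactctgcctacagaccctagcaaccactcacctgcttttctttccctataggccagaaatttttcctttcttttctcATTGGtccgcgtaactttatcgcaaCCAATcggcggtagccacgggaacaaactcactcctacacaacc
The 6 windows held 12 to 28 CG pairs, at 54.4% to 77.2% G or C, and none held TATAAA. Their contig levels were 8.74 for 2610206C17Rik, 5.07 for Pspc1 (a paraspeckle protein), 2.74 for Wdr81, 2.15 for Zbtb2 (a zinc finger repressor), 1.87 for Ino80 (a chromatin remodelling ATPase) and 1.33 for Syvn1 (a ubiquitin ligase of the endoplasmic reticulum). Over all 32851 RefSeq promoters the median window held 6 CG pairs, and over the 8498 promoters of genes of at least 1 RPKM it held 16. The 227 promoters of 156 hosts with a contig 5′ end within 500 nt of a start held a median of 17 (156 of 206 hosts with a symbol were matched). GC boxes were in 60.8% of these, in 59.6% of promoters of genes of at least 1 RPKM and in 32.7% of all promoters, TATAAA in 7.49%, 5.97% and 12.4%, and CCAAT in 29.1%, 35.7% and 33.9%. In these letters the windows of the hosts lay close to those of expressed genes in general.

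The unit of the contig level is not given in the sources used here. From the values it equals the mean read depth per base divided by 33.97, pooled over both libraries, so it carries no replicate error. A level of 0.5 corresponds to a mean depth of 17 reads. Over annotated exons the level was higher than the RPKM (reads per kilobase, scaled to sequencing depth) of the same exon by a median of 2.31 on the log2 scale (n = 7925 contigs), so levels and RPKM are on different scales. Of the base coverage in contigs of this length and level that overlap annotated genes, 97.42% lay in contigs on the strand of a gene. These include contigs over genes of both strands. The other 2.58% lay in antisense contigs. A single contig held 85.2% of that antisense coverage, and without it the antisense share was 0.382%. This contig, chr17:39979936-39985774 on the + strand, was 5839 nt long at a level of 3430 and covered the whole of a gene without a symbol (ENSMUSG00000045999), which had 0.0235 RPKM in the first replicate of the file and 0.0415 in the second. Its strongest junction had 3675 and 2259 reads in the same 2 replicates. The gene spans bases 39985048 to 39985772, so most bases of the contig lay outside it, and the source of its RNA was not tested. This contig is kept out of the statements on named hosts.

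The other contigs were mostly short and low. The quartiles of level were 0.632, 0.908 and 1.69, against 0.94, 1.75 and 3.66 in contigs of the gene strand, and only 33 contigs reached a level of 10. The quartiles of length were 400, 919 and 2468 nt, close to the 401, 887 and 2442 nt of gene-strand contigs. Just inside the level minimum were contigs in Tmco1 (0.5), Ube2v1 (0.501) and Nrp1 (0.501), and just outside it contigs in Tpr (0.498), Gm12796 (0.499) and Spns2 (0.499). Of the host genes 653 held 1 contig, 73 held 2, 14 held 3, 6 held 4 and 4 held 5 (Dek, Eif5b, Gapdhs and Gm20388). For 41 contigs more than 1 gene lay opposite, and the one of higher RPKM was taken as the host, and 35 contigs had a host without a symbol.

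**Figure D1:**
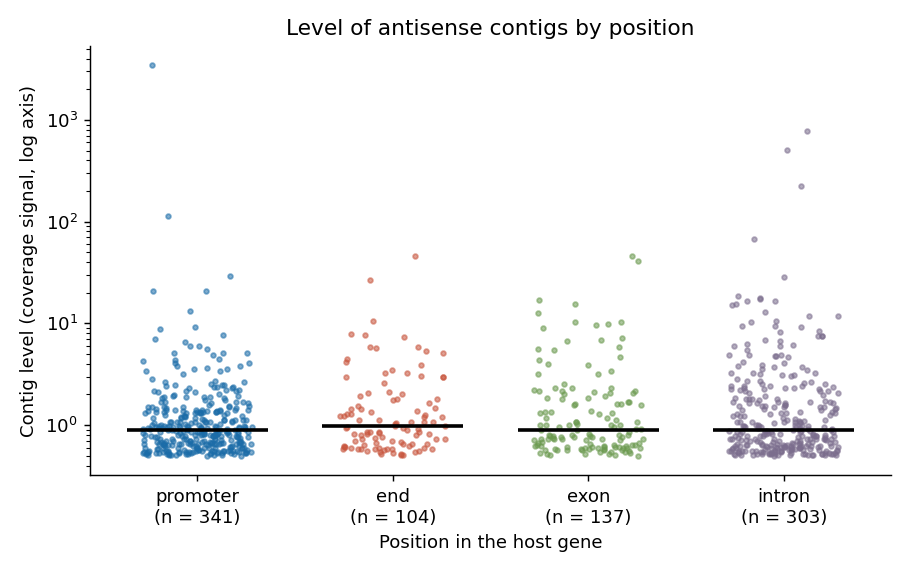
Level of each antisense contig (y axis, coverage signal, log axis) by its position in the host gene (x axis); each point is 1 contig, pooled over both libraries, and the bar is the median. The medians lie between 0.886 (intron) and 0.968 (end), and the highest points are 1 promoter contig at 3430 and 3 intron contigs at 779, 511 and 222.

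Splice junctions and de novo exons were read from tables that the rule did not use. The rule leaves out contigs on the strand of an annotated gene, where most junctions and models lie, so the shares below are partly set by it. A splice junction of the contig's own strand with at least 5 reads touched 288 contigs (32.54%), against 94.0% of all contigs of the same length and level, 96.66% of gene-strand contigs and 38.82% of contigs outside genes. An exon of the authors' de novo models on the contig's strand overlapped 413 (46.67%), against 89.9% of all such contigs and 83.25% of those outside genes. In the contig table itself, which the rule used, a contig of the opposite strand lay over the same bases for 704 (79.55%), against 22.6% of all. The irreproducible discovery rate (IDR), which is low where the replicates share a feature, was at most 0.1 in all 885, but this was also so for all contigs of the same length and level, whereas it held for 44.1% of contigs of any length or level. With 1 group these shares have no test, and they describe these libraries.

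The replicates of the file gave similar values for the antisense de novo exons. An RPKM above 0 in either replicate was listed for 408 contigs and in both for 392. The median log2 ratio of the second to the first was -0.14, with quartiles of -0.74 and 0.25, and 72.19% lay within 2-fold. Over all de novo exons the median was -0.15 and 75.76% lay within 2-fold. Of the 288 strongest junctions 242 had reads in both replicates (84.03%, against 90.86% of all junctions of at least 5 reads).

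**Figure D2:**
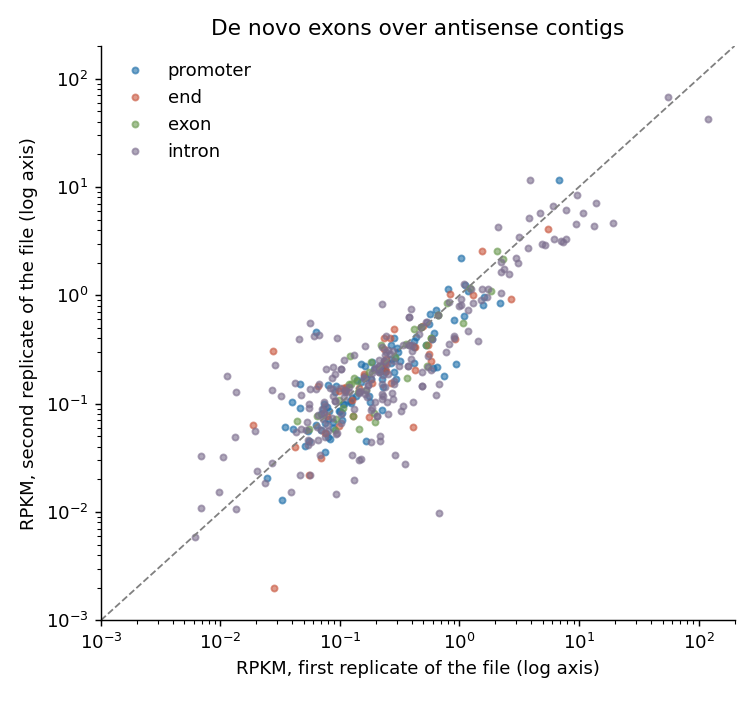
RPKM of the de novo exon over each antisense contig in the first (x axis) and second (y axis) replicate of the file, both on log axes, coloured by position in the host; points on the dashed line are equal in both. Of the 392 points 283 lie within 2-fold of the line, and the 2 highest are intron contigs.

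Each contig was placed in its host gene by 4 classes taken in order. They were promoter (within 500 nt of an annotated start), end (within 500 nt of an annotated end), exon (any base in an exon) and intron. Starts and ends were those of every annotated transcript of the host, so they can lie deep inside the gene. The promoter class held 341 contigs (38.53%, Wilson 95% interval 35.38% to 41.78%), the end class 104 (11.75%, 9.793% to 14.04%), the exon class 137 (15.48%, 13.25% to 18.01%) and the intron class 303 (34.24%, 31.19% to 37.43%). The intervals cover counting error only. A long contig reaches a start more easily than a short one, so bases were counted too. Of the contig bases inside hosts 16.37% lay in the promoter windows, which make up 2.331% of host bases, a 7.02-fold excess. The end windows held 8.208% against 2.582% (3.18-fold), exons 9.148% against 3.251% (2.81-fold), and introns 66.27% against 91.84% (0.722-fold). Antisense coverage was thus densest at host starts, and most antisense bases were nevertheless intronic.

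**Figure D3:**
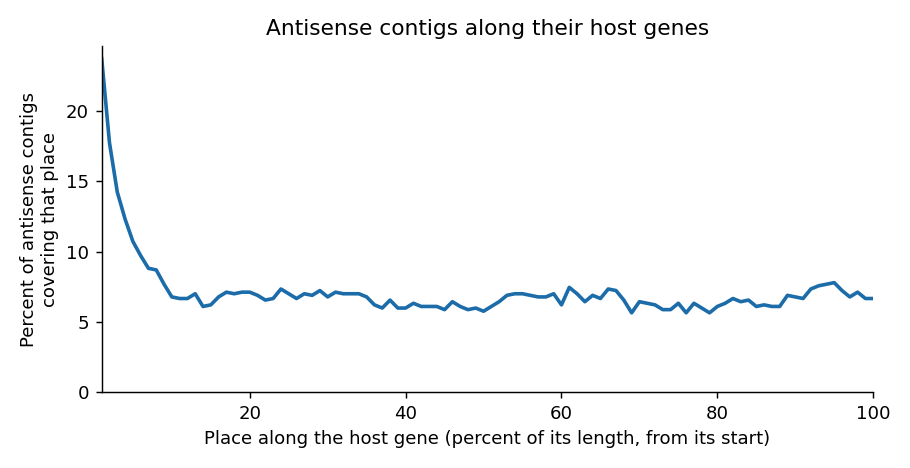
Percent of the antisense contigs (y axis) that cover each hundredth of their host gene (x axis, from the host start to its end). The line falls from 23.7% at the start to 6.67% at the end and lies at 5.76% in the middle of the gene.

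Promoter contigs were the longest class, with a median of 1739 nt and 107 of 341 wholly inside the host, and sat in moderately expressed hosts, with a median of 3.03 RPKM. For 221 contigs the 5′ end lay within 500 nt of a host start, and 72 of these (32.58%) touched a junction of at least 5 reads. The promoter contig of highest level with a named host below 100 RPKM was in Gm9800 (chr14:9632283-9632889, + strand) at 113, beneath a sense level of 341. It came no closer than 139 nt to the host start and ran across the host end. It is in this class because the promoter class is taken before the end class. This host had 129 RPKM in the first replicate of the file and 34.2 in the second, so its replicates differed by more than 3-fold, and reads of near-identical copies, if any, could not be told apart. The contig in C530008M17Rik (chr5:77084396-77087487, - strand) had a level of 20.8 with no sense contig over it. That in Hsp90aa1, the inducible cytosolic chaperone, was at 20.6 over 340 nt, against 30.5 for the sense strand. Exons made up 94.41% of the Hsp90aa1 contig. Its middle lay 0.705 of the way along the host, so the start it meets is one inside the gene. Ccne2, which encodes cyclin E2, was the host of one of the longest contigs (chr4:11103103-11118779, - strand, 15677 nt). The 5′ end of this contig lay 76 nt from a host start, and most of its bases lay outside the host, which begins at base 11118498. Its level was 2.52 against a sense level of 0.153 over the same bases, its strongest junction had 54 and 23 reads, and a de novo exon over 0.201 of its bases had 0.556 and 0.547 RPKM. This contig is 1 of 50 that a junction of at least 5 reads joins to an annotated gene of their own strand. The contig in Smim1, which carries the Vel blood group antigen, was 18299 nt long at 1.31, with 145 and 115 reads on its strongest junction. It too lay mostly outside this host. Those in 6530409C15Rik (16882 nt, level 2.21) and Fbxw2, an F-box protein (15955 nt, level 1.67), had 18 and 3 junction reads and 2 and 4.

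Intron contigs were shorter, with a median of 530 nt, and sat in low hosts, with a median of 0.796 RPKM. They had the highest share with a de novo exon (77.56%, against 27.57% of promoter contigs), and 118 of the 303 had no sense contig over them. The highest lay in Jarid2, a subunit of the polycomb repressor that methylates histone H3 (chr13:44964934-44965455, - strand), at a level of 779. Its de novo exon had 120.8 RPKM in the first replicate and 42.2 in the second, while the host had 2.87 and 1.70. The next lay in Arhgap21, a GTPase-activating protein (chr2:20821466-20821848, + strand), at 511 with 4.87 and 2.98 RPKM and 122 and 57 junction reads. The third lay in Sspn, the sarcospan of the dystrophin complex, at 222 with 1.18 and 0.728 RPKM. For the contigs in Arhgap21 and Sspn the level exceeded the RPKM by 130- and 233-fold, whereas the median log2 excess over 365 antisense contigs with a de novo exon over at least 0.5 of their bases was 2.65. Such an excess, over 32-fold, was found for 33 of the 365, and for these the contig and de novo tables differ in the amount of RNA they list. Why they differ was not tested, and reads of near-identical copies, if any, could not be told apart here either. The contigs in Tmem132d (67.8; 19.4 and 4.65 RPKM) and Adamts6, a secreted metalloprotease (28.7; 2.25 and 1.04 RPKM), also had no sense contig.

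End contigs had hosts of 1.61 RPKM at the median. For 32 of the 104 (30.77%) the contig began within 5000 nt downstream of the end of an annotated gene of its own strand, against 12.32% of all 885 contigs. A de novo model joined 56 of the 885 to an annotated gene of their own strand, and 27 of these 56 were among the 109 that lie downstream of one. The highest end contigs were in Anp32b (46.1), Cyb5r3, an NADH-cytochrome b5 reductase (26.8, against a sense level of 47.7), and Cep85, a centrosomal protein (chr4:133717570-133720438, + strand, 10.6). The Cep85 contig had no sense contig, 152 and 31 junction reads and 5.53 and 4.07 RPKM in its de novo exon, near the 5.48 and 5.16 RPKM of the host. The longest of all the contigs, 19538 nt in the end class of Slc16a4 (a member of the monocarboxylate transporter family), had a level of 1.81 and 0.242 and 0.201 RPKM, while its host was at 0.0127 and 0 RPKM.

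Exon contigs were short, with a median of 547 nt, and 123 of the 137 had sense RNA over them. By the order of the classes they lie wholly inside their hosts. In hosts of at least 10 RPKM, 20 exon contigs lay in 16 hosts, all 20 with sense contigs over at least 0.5 of their bases, and 1 of them overlapped a de novo exon of its own strand while 3 touched a junction of at least 5 reads. The highest were 2 contigs of Anp32b, an acidic nuclear protein that binds histones (chr4:46484053-46484478, 45.6, and chr4:46482728-46483203, 41.4, both - strand), against a sense level of 12.5. The antisense level there was higher than the sense level by 3.65- and 3.31-fold. However, the sense contig spans introns, and its mean is lower than that of its exons. Exons made up 16.43% and 26.26% of the bases of these 2 antisense contigs, so most of both was intronic. Ncl, the nucleolar protein nucleolin (chr1:88252943-88253318, + strand), had 16.9 against 26.5. Plagl1, an imprinted zinc finger factor, had 6.84 against 46.6, and Rbm25, a splicing factor, had contigs at 9.71 and 1.29 against 3.52. Exons made up 72.61% of the Ncl contig, 100% of that in Plagl1, and 84.44% and 27.55% of those in Rbm25.

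A purine-rich coding stretch, which the rule did not use, was more frequent among these hosts than among other genes of their level. In the longest GENCODE M21 coding sequence of each gene, the 100-nt window richest in purines (A or G) was found. It held at least 80% purines in 9 of the 15 hosts of exon contigs between 10 and 100 RPKM (60%), against 62 of 1323 genes of that level with a coding sequence (4.69%). The median of the richest window was 83% in these hosts and 66% in all genes of that level. Between 1 and 10 RPKM the share was 39.06% of 64 hosts of exon contigs against 5.004% of 6815 genes. It was 50% and 23.68% for hosts of end contigs, 21.28% and 13.13% for promoter contigs and 5.556% and 9.901% for intron contigs, in the higher and the lower range of host level. The median coding length was 1287 nt in the 15 hosts and 993 nt in all genes between 10 and 100 RPKM. Between 1 and 10 RPKM it was 2193 nt in hosts of exon contigs, 2280 nt in hosts of intron contigs and 1377 nt in all genes. A longer sequence offers more windows. The richest windows of 3 hosts are printed to show such stretches. Capitals mark codons for acidic residues (GAA, GAG, GAC and GAT) in the reading frame. They are from GENCODE M21 (GRCm38), 5′ to 3′ on the host strand, and the contigs are on mm9, so whether a contig lies over the window was not measured.
Anp32b: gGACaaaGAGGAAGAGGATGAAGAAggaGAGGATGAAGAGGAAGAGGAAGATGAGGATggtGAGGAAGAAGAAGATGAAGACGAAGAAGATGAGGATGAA
Plagl1: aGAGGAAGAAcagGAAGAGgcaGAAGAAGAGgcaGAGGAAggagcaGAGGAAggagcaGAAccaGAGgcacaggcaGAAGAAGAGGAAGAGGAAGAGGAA
Luc7l3: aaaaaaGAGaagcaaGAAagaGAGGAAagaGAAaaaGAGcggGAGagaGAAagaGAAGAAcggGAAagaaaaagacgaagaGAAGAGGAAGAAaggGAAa
These are bases 534 to 633 of the Anp32b coding sequence, 1872 to 1971 of Plagl1 and 742 to 841 of Luc7l3, a splicing factor with an arginine and serine-rich tail, and they hold 90%, 90% and 96% purines. Acidic codons numbered 30, 22 and 16. Other purine-rich windows differed in them, with 33 in Ncl (86% purines) and 23 in Ppm1g (81%). Fewer were found in Srsf11 (9, at 88% purines), Cdca8 (11, 88%), Rrbp1 (6, 84%) and Luc7l2 (11, 83%). Of the 15 hosts 6 stayed below 80% purines (Serbp1, Eif5, Eif3g, Mns1, Ppib and Ube2v1, 66% to 77%). Other hosts of antisense contigs with long acidic stretches, picked after their values were seen, were Dek (5 contigs of at most 7.69 against a sense level of 18.5), Anp32a (7.61 against 21.3 for its highest), Npm1 (2.2 against 28.1) and Ptma (1.65 against 42.8). The part of the purine content in the antisense signal was not tested.

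**Figure D4:**
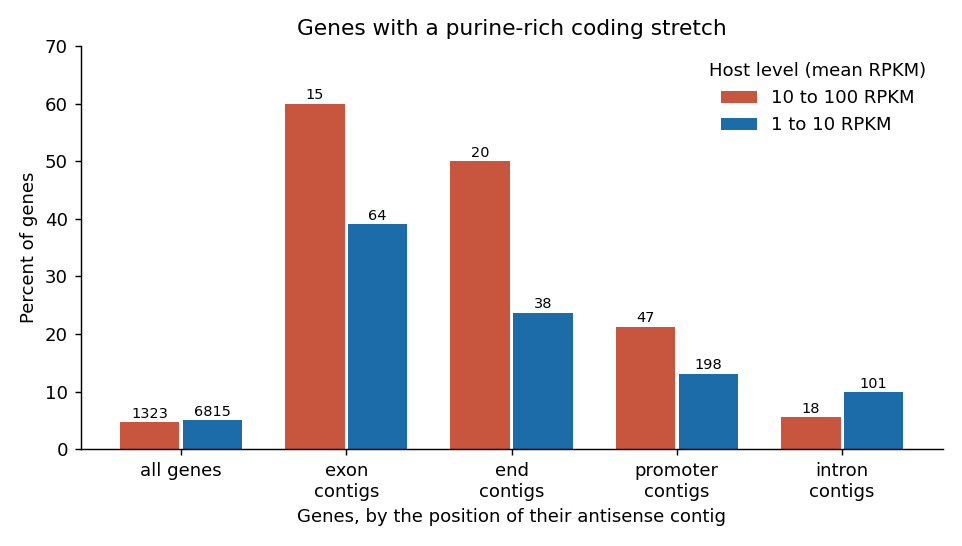
Percent of genes (y axis) whose richest 100-nt coding window holds at least 80% purines, for all genes and for hosts of antisense contigs by contig position (x axis), in 2 ranges of host level (colours); the figure over each bar is the number of genes with a coding sequence. Hosts of exon contigs reach 60% and 39.1%, against 4.69% and 5% of all genes.

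The ratio to the sense level was taken over the same bases, with bases without a sense contig at 0. Where a contig reaches beyond its host, the bases outside the host are included. Over the 704 contigs with a sense contig the median log2 ratio was 0.29 (quartiles -1.71 and 2.41), 374 lay above the sense level, 42 below 0.1 times it and 116 above 10 times it. The level minimum sets the lower edge of this ratio, so it describes the contigs that passed and not antisense RNA in general. By position the medians were 0.07 for promoter, -1.18 for end, -1.05 for exon and 2.39 for intron contigs. The median was lower in hosts of higher level, at 2.70 below 1 RPKM (n = 170), -0.09 between 1 and 10 (n = 415) and -1.95 between 10 and 100 RPKM (n = 114). Over all contigs of these ranges the median antisense level was 0.8225, 0.9 and 1.34. Host level is itself a measure of sense RNA, so a lower ratio in higher hosts is partly built in. In 467 contigs at least 0.5 of the bases had a sense contig. Restricted to such contigs with a host below 100 RPKM (n = 463), the median was -0.81 instead of 0.30, so the sign of the typical ratio depends on how thinly covered contigs are counted.

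**Figure D5:**
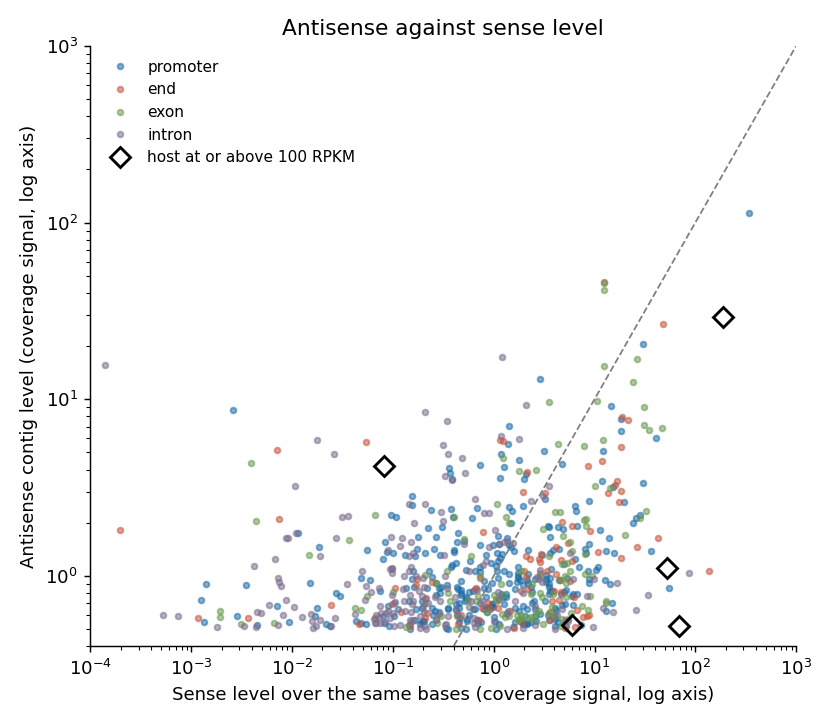
Level of each antisense contig (y axis) against the sense level over the same bases (x axis), both as coverage signal on log axes, coloured by position in the host; diamonds are the 5 contigs in hosts of at least 100 RPKM and the dashed line marks equal levels. Of the 704 points 374 lie above the line, and 1 of the 5 diamonds does.

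The highest ratios came from bases with almost no sense coverage. They were found in Nbas, a protein of Golgi-to-endoplasmic reticulum transport (15.6 against 0.00014), Slc16a4 (1.81 against 0.000196), 2610206C17Rik (8.74 against 0.00262), Bckdhb, a subunit of branched-chain ketoacid dehydrogenase (0.602 against 0.000522), and Gapdhs, the sperm form of a glycolytic enzyme (4.34 against 0.00392). Sense contigs covered at most 7.83% of the bases in the last of these, and the size of such a ratio is not meaningful beyond the 2 levels. The 2610206C17Rik contig (chr7:91837394-91838484, - strand) had 837 and 525 junction reads and that in Gapdhs 153 and 116. A junction of at least 5 reads and a de novo model joined the 2610206C17Rik contig to an annotated gene of its own strand. Junction reads were thus present in both replicates in both hosts, while the hosts themselves were at 0.0202 and 0.00995 RPKM and at 0 and 0.

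Abundant hosts, of at least 100 RPKM, were kept apart. Of 127 genes of at least 100 RPKM, 5 held a contig (3.937%), against 5.875% of genes between 10 and 100 RPKM and 5.181% between 1 and 10. Their median log2 ratio was -3.52. Hsp90ab1, the constitutive cytosolic chaperone (147 and 86.7 RPKM), had 29.3 against a sense level of 190 (chr17:45707121-45707750, + strand). Serinc3, a membrane protein (111 and 113 RPKM), had 1.11 against 52.7 in a contig of the exon class with 27.4% of its bases in exons. Slc25a37, the mitoferrin that imports iron into mitochondria of red cells (123 and 143 RPKM), had 0.528 against 6.04 in an intron, and Rps14, a protein of the small ribosomal subunit (77.7 and 131 RPKM), had 0.52 against 69. Sense RNA exceeded antisense RNA in these 4. In Gm15710 (163 and 112 RPKM) the order was the opposite, with an intron contig of 4.18 over 3005 nt against a sense level of 0.0814, and its de novo exon had 0.812 and 0.864 RPKM. The antisense level was 0.754% of the sense level in Rps14 and 15.4% in Hsp90ab1, so no single share of the sense level describes the group. Alb, Afp and Hba-a1, the genes of highest level named above, were not among the 5 hosts.

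The level of RNA from antisense genes known today was read in the mm10 gene tables, which the rule did not use. Of 750 hosts 720 were found in GENCODE M21, and 102 of these held opposite-strand genes that the mm9 annotation lacks. There were 197 pairs of a host and such a gene. Of these, 52, in 2 hosts, were with ribosomal RNA genes and 27 with processed pseudogenes. Whether these tables were counted by strand is not given in the sources used here, and without strand the reads of overlapping partners cannot be told apart. In both libraries the opposite gene was at 0 TPM in 118 of the 197 pairs (an abundance scaled for transcript length and library size) and reached 1 TPM in 20. For 44 of the 197, opposite 43 contigs, the gene lay at the same relative place in the host as the contig, and 13 of the 44 reached 1 TPM in both libraries. Processed pseudogenes made up 15 of the 44. Of these 15, 9 were at 0 TPM in both libraries and none reached 1 TPM in both. The partner exceeded its host in both libraries in 10 of the 44 and lay below it in both in 30. Dleu2, a long non-coding RNA of a gene that extends beyond its host, lay opposite Trim13 and had 36 TPM in replicate 1 and 30.7 in replicate 2, while Trim13 had 2.65 and 1.87. A730089K16Rik, opposite C530008M17Rik, had 18.5 and 14.4 TPM against 7.38 and 4.94 for the host. 2310009A05Rik, opposite Pigb, had 17.1 and 11.5 TPM against 4.08 and 3.37, but was not at the place of the contig. Gm28857, opposite AA986860, had 6.17 and 8.51 against 3.54 and 3.55. In these 4 pairs both libraries had the antisense gene above the host. Tmem147os, which lies at the place of the spliced Gapdhs contig, had 3.72 and 4.16 TPM with Gapdhs at 0 in both.

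Host genes were also read by lists of liver, blood and housekeeping functions. Among the 40 erythroid genes of the mm9 annotation, hosts numbered 8 (20%), among them Ank1, Bpgm, Fech, Gata1, Rhag, Slc25a37 and Sptb. This compares with 2.01% of all 37310 genes and 5.286% of the 9213 genes of at least 1 RPKM, and all 40 were of at least 1 RPKM. In Ank1, the ankyrin of the red cell skeleton, the contig lay in an intron over 6014 nt at 1.63 against 0.00914. In Gata1, the master factor of the lineage, it was at 0.674 against 0.00712 with 66 and 36 junction reads. Sense contigs covered 0.0399 of the bases of the Ank1 contig and 0.154 of those in Gata1, and the hosts were at 18.9 and 12.5 RPKM and at 24.7 and 28.4 RPKM, so the order of the 2 strands concerns these bases only. Of the splicing list 4 of 36 were hosts (Drosha, Rbm25, Srsf10 and Srsf11), of the chromatin list 5 of 28 (Atrx, Ctcf, Hdac2, Jarid2 and Smc3) and of the cell cycle list 2 of 36 (Ccne2 and Cdt1). Hdac2, a histone deacetylase, had a promoter contig at 2.5 against 6.36, and Cdt1, which licenses replication origins, one at 1.06 against 8.7. The Hdac2 contig lay 98.74% in exons and 0.874 of the way along the host, near a start inside the gene. Among hepatocyte genes 1 of 34 was a host, and among plasma protein genes 0 of 33. The ribosomal list had 1 of 34 (Rps14), the endothelial and mesenchymal list 1 of 27 (Tie1, an endothelial receptor, 0.604 against 4.05), and the lists of other blood lineages (0 of 40) and neighbouring tissues (0 of 18) none.

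Imprinted genes are known for antisense RNAs that overlap them, and 4 of 34 were hosts: Copg2, Gnas, Kcnq1 and Plagl1. The contig in Gnas, which encodes the stimulatory G protein subunit, was at 2.25 over 4688 nt (chr2:174146966-174151653, - strand) with no sense contig over it and with 116 and 57 reads on its strongest junction. The contig in Kcnq1, a potassium channel, was at 0.697 over 3220 nt of an intron, also with no sense contig, and its de novo exon had 0.119 and 0.141 RPKM. GENCODE M21 has Kcnq1ot1, the paternally expressed silencing RNA of that domain, at this place, with 0.21 TPM in replicate 1 and 0.16 in replicate 2. The host was at 0.0448 and 0.0593 RPKM. The Copg2 contigs were at 1 and 0.895. Antisense RNA was thus present in both replicates at the Gnas and Kcnq1 loci, at levels near the minimum of the rule for Kcnq1.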

How the data were processed

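Liver RNA was measured in 2 libraries, biological replicates 1 and 2 of 1 group. Per the file headers, the authors deposited expected counts and TPM per gene on mm10 for each library. On mm9 they deposited Ensembl 65 and de novo Cufflinks models with RPKM for 2 replicates whose link to the libraries is not given (called first and second replicate of the file). Contigs were deposited with a signal of coverage and a summed base count, and junctions with a read count, both pooled over the libraries and with an IDR score. The aligner is not given in the sources used here.

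Genes of at least 100 RPKM (mean of both replicates) were called abundant. The sense level is the base-weighted mean level of host-strand contigs over the whole contig, also where it lies outside the host. Shares carry Wilson 95% intervals. With 1 group and no contrast there is no test. Reads carry no molecular identifiers. The rule and the position, ratio and junction steps were tested on simulated contigs. Members and gene lists were chosen with earlier results of these data known. Named were, by fixed rule, the 10 highest contigs in hosts below 100 RPKM, the 5 highest in abundant hosts, the 3 highest per position, the 5 of highest ratio, the 5 longest, the 5 highest with a junction, up to 2 per list, the 3 on each side of the level minimum and the 5 antisense genes of highest TPM. The hosts of printed promoters and coding windows, Anp32a, Dek, Npm1, the hosts named for their purine content, Ptma, Gata1, Kcnq1, Kcnq1ot1, Copg2 and Tmem147os were added after their values were seen, as was the purine comparison. Python 3.11.15, pandas 2.3.3 and numpy 2.4.6 were used. Alternatives changed the length, level, window, IDR, sense level and abundance limits. No mm9 genome was used, so contig sequences are not shown. Some items that the naming rule takes are not reported here.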

Additional observations from a re-analysis of the deposited data

How the results depend on the processing

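Of 47 alternatives, 26 were counted as leaving the result the same, some of them with sizeable shifts, 18 as moving it and 3 as turning its sign. All 3 concern the median log2 ratio of antisense to sense level in hosts below 100 RPKM, 0.30 as reported: it was -0.84 against the RPKM of the host gene (a different scale), -0.75 against the highest host-strand contig and -0.81 over contigs with sense contigs over at least 0.5 of their bases, an alternative added after seeing the data. In abundant hosts the host RPKM gave -6.66 in place of -3.52, and a minimum of 300 RPKM left no contig and gave no value. The number of contigs was 1351 at 100 nt, 2232 at a level of 0.25 and 385 at a level of 1, in 1713 hosts at 0.25 and 332 at 1, and the median level at a minimum of 1 was 1.93. Contig numbers of 664 at 400 nt and 615 wholly inside the host, against 885, were counted as the same. So was a median log2 ratio of 0.55 at a level of at least 1, in place of 0.30. With windows of 1000 nt the promoter share was 42.03%, the exon share 12.77% and the share of 5′ ends near a host start 33.9%. Asking that exons make up at least 0.5 of a contig moved the exon share to 6.554% and the intron share to 43.16%. A sense contig was found for 75.58% at a level of at least 1 and covered at least 0.5 of the contig in 52.77%. A de novo exon covered at least 0.5 in 41.81%, and 74.69% touched any junction but 32.54% one of at least 5 reads. Contigs downstream of an own-strand gene were 4.068% within 1000 nt and 19.89% within 10000 nt. The median TPM of antisense genes was 0 in each replicate alone. No paired analysis was possible because there is 1 group. The minimum level of 0.5, a mean of about 17 reads per base, was set by the rule, and contigs of lower level were present.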
